A study of Mus musculus with 9 samples.

Results

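The constitutive proteasome subunits were followed at the RNA level in 2 lines of prostate epithelium from the mouse, one wild-type and one lacking the retinoblastoma gene Rb1. Members were the probe sets of the array whose annotated gene symbol starts with Psma, Psmb, Psmc, Psmd or Psme and a digit, without the inducible immunoproteasome genes Psmb8, Psmb9 and Psmb10. This rule matched 52 of 12422 probe sets. Of these, 48 probe sets were annotated to 1 subunit gene each, for 37 genes: 14 genes of the core particle, 20 of the 19S particle and 3 activators. The 20 genes include Psmd5, Psmd9 and Psmd10, which encode chaperones that assemble the 19S base. By their symbols they are counted among the subunits and in the 19S particle throughout. Another 2 probe sets listed several activator genes and are not named after any of them. The remaining 2 belonged to Psmc3ip and Psme3ip1, which share the prefix but encode no subunit, and they are described apart from the others. After a filter on low values, 46 subunit probe sets for 36 genes were tested, 17 of the core and 29 of the regulatory particles (24 of the 19S particle and 5 of the activators). The probe set of Psmc4, and 1 further probe set each of Psmb1, Psmb4 and Psme1, stayed below the intensity floor on all 9 arrays and were not tested.

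The proteasome degrades proteins that carry ubiquitin chains. Its barrel-shaped core is built from rings of alpha subunits (Psma), which gate the entrance, and rings of beta subunits (Psmb), 3 of which, Psmb5, Psmb6 and Psmb7, cleave peptide bonds. The 19S particle caps the core: its base holds ATPases (Psmc) that unfold the substrate, and its lid (most Psmd subunits) removes the ubiquitin chain. Activators of the Psme family are alternative caps that open the core without ATP. Subunit genes are often transcribed together, under the transcription factor NRF1 (gene Nfe2l1) among others, and proteasomal degradation removes cyclins and cyclin-dependent kinase inhibitors in dividing cells.

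Total RNA of the 2 lines was hybridised to single-channel arrays in 4 groups. The wild-type line was grown in RPMI-1640 medium with 5% fetal bovine serum (3 arrays) or kept in the same medium without serum for 48 hours (2 arrays). The Rb-/- line was kept in the same media, with 2 arrays in each. Each genotype was 1 cell line, so the genotype and any other difference between these lines cannot be told apart, and nothing in the labels ties the arrays of a group to different cultures. All p-values are thus relative to the spread between these arrays, which may be technical.

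Values are normalized intensities with a floor of 197, below which signals were not ordered, and differences are on the log2 scale. The probe set of Rb1 that passed the filter read between 368 and 714 on the 5 wild-type arrays and lay at the floor on all 4 Rb-null arrays. Replicates had rank correlations from 0.994 to 0.998 over all probe sets, except that wild-type serum 1 reached 0.986 and 0.983 with the other wild-type serum arrays. That array lay above both of them for 31 of the 46 subunit probe sets and below both for 7. Leaving it out ended no subunit call, while more subunit probe sets passed in every comparison but serum withdrawal in wild-type cells, and members called between the lines on average only without it are named with that value. Over all probe sets, more were called without it in every comparison. All 10 epithelial marker genes were above the floor on every array. Markers of other cell types were above the floor on every array for 5 of 7 leukocyte genes (Cd3e, Cd68, Cd79a, Csf1r, Itgam), 3 of 6 endothelial genes (Kdr, Pecam1, Vwf), 5 of 6 fibroblast genes (Col1a1, Col1a2, Col3a1, Dcn, Pdgfra) and 2 of 5 smooth muscle genes (Des, Tagln). Ptprc (leukocytes), Tek and Tie1 (endothelium), Lum (fibroblasts), and Acta2, Cnn1 and Myh11 (smooth muscle) lay at the floor on every array. Summed over each list, leukocyte markers spanned 2811 to 3391 in the wild-type and 2814 to 2952 in the Rb-null groups, and endothelial markers (6 genes) 2047 to 2352 and 1838 to 1968. The sums were 3020 to 3879 and 3088 to 3244 for fibroblast markers, and 1597 to 2056 and 1626 to 1663 for smooth muscle markers. Their part in the results was not tested. In cultured cells measured in bulk, fewer cells of a type and less RNA per cell cannot be told apart.

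Upstream sequences of the member genes were searched for 4 motifs on both strands, in the 250 bases before the annotated start (RefSeq, GRCm38.p6). Of 36 member genes, 30 were in the promoter table, with 32 windows. The letters CCGGAAG, a form of the site of ETS factors, occurred in 12 of 32 member windows (37.5%), against 6.91% of all 32851 windows. The 11 genes with these letters moved differently between the lines. Psmc2, Psmc6, Psmd6, Psmd12, Psme4 and 1 of 3 probe sets of Psmd11 rose, Psme3 fell, and Psma6, Psmc1, Psmd2 and Psmd4 did not pass, while Psma2, Psma4 and Psme1 rose and hold no such match in this window. The core of the antioxidant response element, TGACNNNGC, which NRF1 also uses, occurred in 15.6% of member windows and 10.2% of all windows. The NF-Y box CCAAT occurred in 37.5% and 33.8%. Neither form of the E2F site searched (TTTGGCGC, TTTCGCGC), the class of site through which the retinoblastoma protein acts, was found in a member window, against 0.654% of all windows. At so low a share, 32 windows are too few for this absence to be informative, and other forms of the site were not searched. These matches describe the letters in the windows and were not tied to binding. The background takes in all windows, whatever the expression of the gene or the base composition of the window.

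The upstream sequences of 4 genes with the ETS letters are shown because their probe sets are described array by array (Psmc2, Psmd12, Psmd6, Psme4); they were chosen among those that rose and do not stand for all 11. Those of the catalytic genes Psmb5 and Psmb6 are shown for their TGACNNNGC match. That of Psmd8 is shown because its probe set differed in the opposite direction; it held no match. Capitals mark the matches, read on either strand, and each sequence runs 5′ to 3′ toward the start of the gene. Psmc2 is at chr5:21785025-21785274 on the plus strand, upstream of the first of its 2 starts in the table, and its second capitalised run is the CCAAT box. Psmd12 is at chr11:107479278-107479527 on the plus strand, with a TGACNNNGC match on the opposite strand as its first run. The windows of Psmd6 and Psme4 are at chr14:14120946-14121195 on the minus strand, and chr11:30771525-30771774 on the plus strand. Psmb5 is at chr14:54617996-54618245 on the minus strand, Psmb6 at chr11:70525107-70525356 on the plus strand, and Psmd8 at chr7:29180674-29180923 on the minus strand.
Psmc2: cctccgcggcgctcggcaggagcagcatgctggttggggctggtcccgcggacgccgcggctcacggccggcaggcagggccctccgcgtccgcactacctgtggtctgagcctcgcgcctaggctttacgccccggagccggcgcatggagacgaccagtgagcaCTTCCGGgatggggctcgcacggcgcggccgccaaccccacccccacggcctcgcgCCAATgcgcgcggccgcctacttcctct
Psmd12: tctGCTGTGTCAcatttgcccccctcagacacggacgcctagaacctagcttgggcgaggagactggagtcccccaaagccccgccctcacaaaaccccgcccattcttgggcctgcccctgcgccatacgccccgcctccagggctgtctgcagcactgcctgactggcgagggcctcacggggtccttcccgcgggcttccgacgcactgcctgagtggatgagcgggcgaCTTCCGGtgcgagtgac
Psmd6: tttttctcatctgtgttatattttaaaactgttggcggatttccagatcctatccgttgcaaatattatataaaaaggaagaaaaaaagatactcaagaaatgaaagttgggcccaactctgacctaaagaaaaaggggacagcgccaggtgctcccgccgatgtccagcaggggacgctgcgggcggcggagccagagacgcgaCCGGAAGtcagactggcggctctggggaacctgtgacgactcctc
Psme4: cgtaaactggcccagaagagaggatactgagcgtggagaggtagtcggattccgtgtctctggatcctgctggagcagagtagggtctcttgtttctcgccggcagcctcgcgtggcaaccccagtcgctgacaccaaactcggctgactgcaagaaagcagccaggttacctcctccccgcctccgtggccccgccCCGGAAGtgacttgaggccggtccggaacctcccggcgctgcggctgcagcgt
Psmb5: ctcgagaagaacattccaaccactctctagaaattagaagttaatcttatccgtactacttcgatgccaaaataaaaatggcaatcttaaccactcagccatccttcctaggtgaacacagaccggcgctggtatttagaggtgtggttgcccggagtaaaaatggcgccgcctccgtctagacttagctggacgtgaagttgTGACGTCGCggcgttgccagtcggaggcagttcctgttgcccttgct
Psmb6: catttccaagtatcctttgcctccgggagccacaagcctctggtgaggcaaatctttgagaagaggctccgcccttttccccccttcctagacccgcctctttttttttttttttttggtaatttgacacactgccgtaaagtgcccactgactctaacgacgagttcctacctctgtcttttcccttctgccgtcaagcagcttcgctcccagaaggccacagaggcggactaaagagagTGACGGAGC
Psmd8: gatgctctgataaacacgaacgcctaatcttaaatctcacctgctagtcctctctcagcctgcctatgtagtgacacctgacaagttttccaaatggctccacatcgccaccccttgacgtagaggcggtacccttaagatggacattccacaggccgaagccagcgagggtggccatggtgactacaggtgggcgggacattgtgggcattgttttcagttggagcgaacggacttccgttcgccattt

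The first comparison asked how the lines differed when serum and serum-free medium were averaged with equal weight. More subunit probe sets rose than fell in the Rb-null line, in the core and in the regulatory particles: 23 of 46 rose and 4 fell (limma, Benjamini-Hochberg adjusted p under 0.05 over all 9686 probe sets tested). Over all probe sets tested, 21.8% were higher and 23.4% lower, and the median difference was -0.05, against 0.21 over the subunits. Of the core, 9 of 17 probe sets rose and 2 fell, with a median of 0.21. Of the regulatory particles, 14 of 29 rose and 2 fell, with a median of 0.17. The difference between the core and the regulatory particles was not tested. With 1 probe set per gene, 19 of 36 genes rose and 3 fell.

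Every Rb-null array lay above every wild-type array for 12 subunit probe sets (background 10.8% of all probe sets) and below for 2 (background 12.4%). The differences were small: those that rose spanned 0.16 to 0.96. Leaving out single arrays in turn ended 9 of the 27 calls, those of Psma1, Psma5, Psmd1, Psmd6, Psmd12, Psmd14, Psme3 and both called probe sets of Psmb4, and changed no sign. The other 18 calls held without each array in turn. Without wild-type serum 1 all 27 calls held and 8 more passed, 5 higher and 3 lower, of 45 subunit probe sets tested, with a background of 27% higher and 35.9% lower in that setting. Scaling the arrays to a common median, or using the deposited values directly, ended the calls of Psmb2 and Psme3 and raised the subunit medians (core 0.37 and 0.40, regulatory 0.32 and 0.35).

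**Figure D1:**
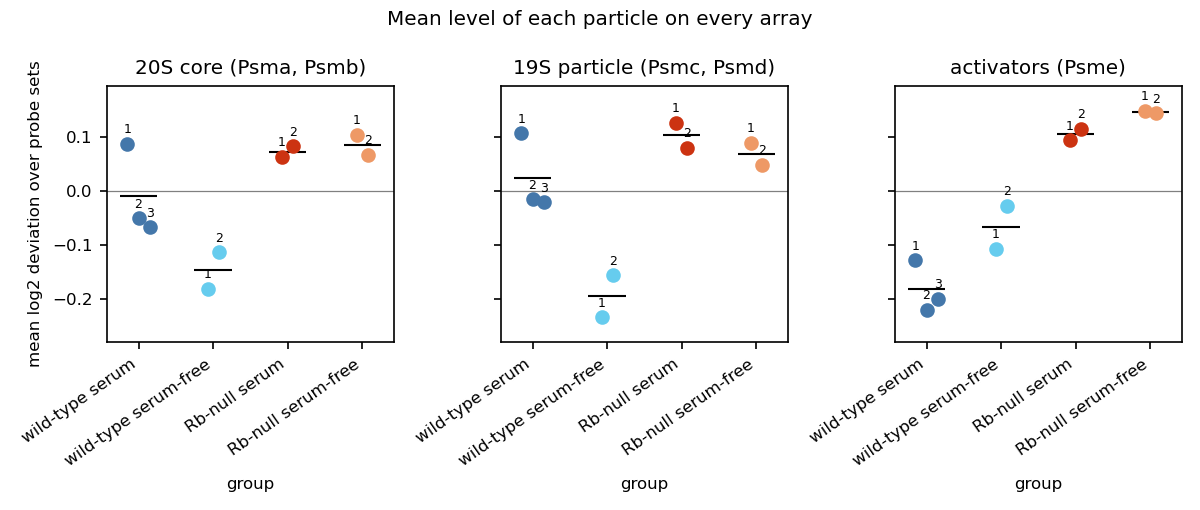
Mean log2 deviation from the mean of the 4 group means, over 17 core, 24 19S and 5 activator probe sets, for each array (points, numbered by replicate) and group (bars, group means). Core means lay between -0.181 and -0.114 on the 2 arrays of wild-type cells without serum and between 0.063 and 0.104 on the Rb-null arrays, while wild-type serum 1 stood at 0.087.

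**Figure D2:**
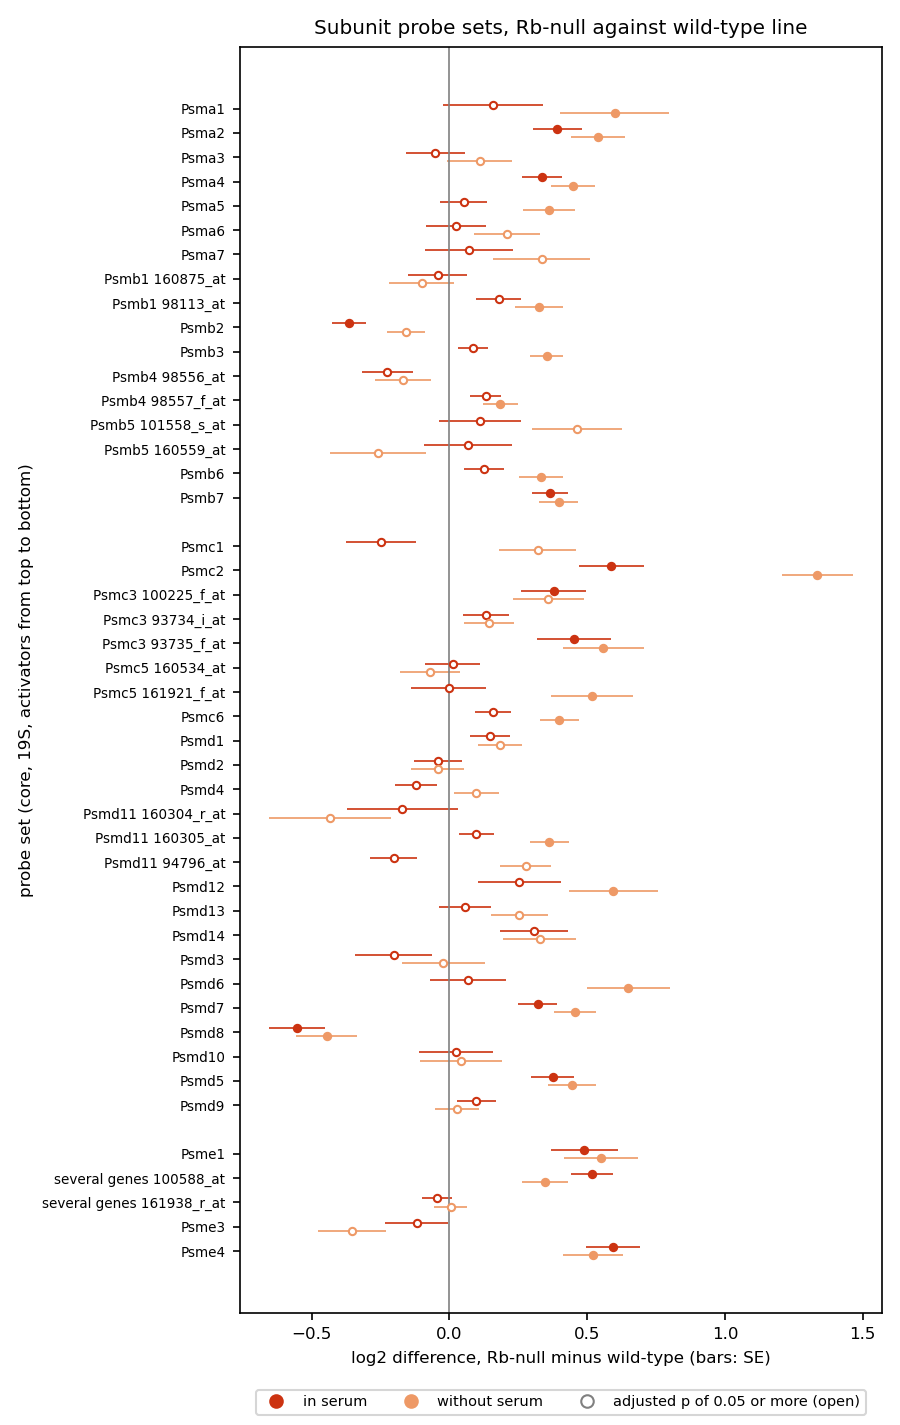
Difference between the lines (Rb-null minus wild-type, log2) for each tested subunit probe set, in serum and without serum, with standard errors as bars; filled points passed an adjusted p of 0.05. Psmc2 stood highest without serum, at 1.34, Psmc2 and Psme4 at 0.59 each in serum, and Psmd8 lowest in both, at -0.44 and -0.55.

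Among the alpha subunits, which form the outer rings and the gate of the core, 4 of 7 genes rose in the Rb-null line, and none fell. Psma2 read 5868, 4682 and 4832 in wild-type cells with serum and 4075 and 4195 without it, against 6715 and 6671 and then 6147 and 5868 in Rb-null cells. The lines were separate in serum and without it, and overlapped only where wild-type serum 1 equalled an Rb-null serum-free array. Its log2 difference was 0.47 (SE 0.066, limma adjusted p = 0.000561). Psma4 read 2737, 2623 and 2832 with serum and 2347 and 2666 without it in wild-type cells, against 3479 and 3410 and then 3335 and 3490 in Rb-null cells. All 4 Rb-null arrays lay above all 5 wild-type arrays, and the difference was 0.39 (SE 0.053, limma adjusted p = 0.000449).

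Psma1 and Psma5 rose less firmly. Psma1 read 1103, 768 and 692 with serum and 601 and 671 without it in wild-type cells, against 909 and 961 and then 1062 and 872 in Rb-null cells. Wild-type serum 1 was the highest of all 9 arrays, so the lines overlapped in serum, and they were separate without it. Its difference of 0.38 (SE 0.134) had a limma adjusted p of 0.0443, which rose to 0.0503 or above, up to 0.154, when any array but wild-type serum 1 was left out. Psma5 read 3695, 3050 and 3089 with serum and 2633 and 2537 without it in wild-type cells, against 3325 and 3444 and then 3357 and 3288 in Rb-null cells. Wild-type serum 1 was again the highest array, and without serum the lines were separate. Its difference of 0.21 (SE 0.064, limma adjusted p = 0.0263) was lost in the same way, with adjusted p between 0.0529 and 0.0878. Psma3, Psma6 and Psma7 did not pass, at 0.03, 0.12 and 0.20, and for each of them wild-type serum 1 was the highest array. Without that array Psma6 passed at 0.17 (adjusted p = 0.0235) and Psma7 at 0.30 (adjusted p = 0.000518).

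Of the 3 catalytic beta subunits, Psmb7 and Psmb6 rose, and Psmb5 did not pass the test with all 9 arrays. Psmb7, which carries the trypsin-like site, was measured by a probe set with the suffix _f, which can also detect related transcripts. It read 2954, 2885 and 2950 with serum and 2546 and 2815 without it in wild-type cells, against 3645 and 3899 and then 3487 and 3564 in Rb-null cells. Every Rb-null array was higher than every wild-type array, by 0.38 on average (SE 0.048, limma adjusted p = 0.000299). Psmb6, the caspase-like subunit, read 3393, 3307 and 3273 with serum and 2918 and 3288 without it in wild-type cells, against 3605 and 3645 and then 4131 and 3681 in Rb-null cells. Here too the lines did not overlap, with a difference of 0.23 (SE 0.054, limma adjusted p = 0.00827).

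Psmb5, which carries the chymotrypsin-like site, was measured by 2 probe sets that disagreed. The brighter probe set, with the suffix _s, read 3179, 2499 and 2183 with serum and 2073 and 2088 without it in wild-type cells, against 3110 and 2513 and then 2688 and 3054 in Rb-null cells, a difference of 0.29 (SE 0.111, limma adjusted p = 0.0616). The dimmer probe set read 539, 802 and 774 and then 845 and 781 in wild-type cells, against 686 and 772 and then 674 and 683, a difference of -0.10 (SE 0.118, limma adjusted p = 0.529). Wild-type serum 1 was the highest of all 9 arrays on the brighter probe set and the lowest of all 9 arrays on the dimmer. Without it both probe sets passed, in opposite directions: the brighter at 0.36 (SE 0.077, limma adjusted p = 0.00291) and the dimmer at -0.19 (SE 0.057, limma adjusted p = 0.0175).

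Of the structural beta subunits, Psmb2 was lower in the Rb-null line, with 2554, 2445 and 2446 with serum and 2076 and 2165 without it in wild-type cells, against 1911 and 1941 and then 1884 and 1918. No Rb-null array reached a wild-type array, and the difference was -0.26 (SE 0.046, limma adjusted p = 0.0018). With arrays scaled to a common median it was -0.10 (adjusted p = 0.218), and as deposited -0.07 (adjusted p = 0.397). Psmb3 rose by 0.22 and 1 of 2 tested probe sets of Psmb1 by 0.25, while the other stood at -0.07 and, without wild-type serum 1, passed at -0.13 (adjusted p = 0.0209). The 2 tested probe sets of Psmb4 were called in opposite directions. The brighter of them read 4366 to 4812 in wild-type and 4954 to 5269 in Rb-null cells, a rise of 0.16 (SE 0.042, limma adjusted p = 0.0143). The dimmer, nearer the floor at 312 to 372 and 293 to 325, fell by 0.20 (SE 0.068, limma adjusted p = 0.0416). The first call was lost without Rb-null serum 1 (adjusted p = 0.0589) or wild-type serum-free 1 (0.063), and the second without any of 6 arrays, all but wild-type serum 1 and 2 and Rb-null serum-free 1 (0.0526 to 0.143).

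**Figure D3:**
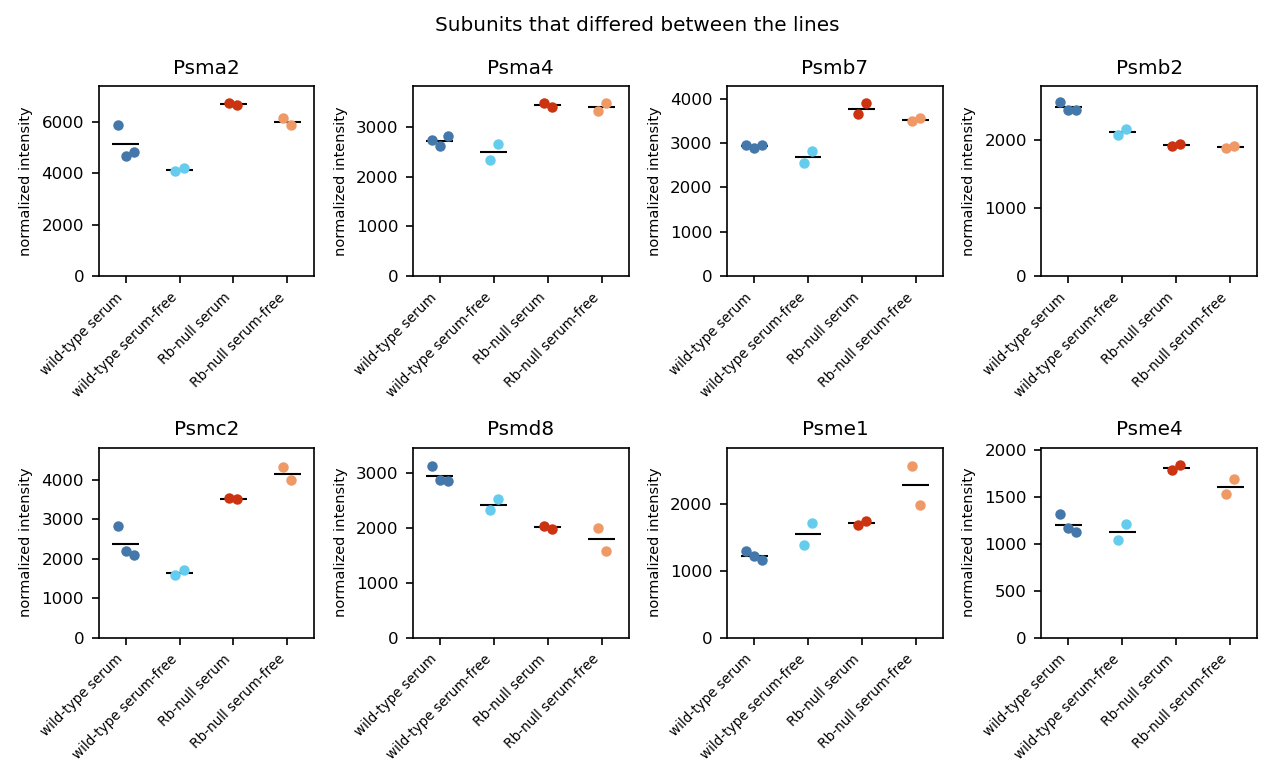
Normalized intensity of 8 subunit probe sets on every array (points) by group, with group means as bars and axes starting at 0. Psma4, Psmb7, Psmc2 and Psme4 were higher on all 4 Rb-null arrays than on all 5 wild-type arrays, and Psmb2 and Psmd8 were lower on all 4.

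Psmc2, an ATPase of the 19S base, differed more between the lines than any other tested subunit. It read 2822, 2189 and 2099 with serum and 1582 and 1721 without it in wild-type cells, against 3554 and 3508 and then 4334 and 4001 in Rb-null cells. The lowest Rb-null array was above the highest wild-type array, wild-type serum 1. The Rb-null line was 1.95-fold higher on average, a log2 difference of 0.96 (SE 0.088, limma adjusted p = 4.24e-05), and between 0.92 and 1.03 when each array was left out. Of the 8 ATPase probe sets tested, 4 rose and none fell. Psmc6 rose by 0.28, and 2 of the 3 probe sets of Psmc3 by 0.37 and 0.51, while the third stood at 0.14. Psmc1 (0.04) and both probe sets of Psmc5 (-0.03 and 0.26) did not pass. The second of Psmc5 passed without wild-type serum 1, at 0.32 (adjusted p = 0.00377).

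The non-ATPase subunits of the base, Psmd1, Psmd2 and the ubiquitin receptor Psmd4, stood at 0.17, -0.04 and -0.01. Psmd1, a scaffold of the base, was the 1 that passed, with 2070, 2151 and 1940 with serum and 1585 and 1694 without it in wild-type cells, against 2245 and 2301 and then 1824 and 1901. Within each medium its lines were separate, and across media they overlapped. Its limma adjusted p of 0.0316 (SE 0.053) was lost on leaving out any of 6 arrays, all but wild-type serum 1 and 2 and wild-type serum-free 2, with adjusted p between 0.0548 and 0.11.

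In the lid, 5 of 10 probe sets rose and 1 fell. Psmd8 was the subunit that fell: it read 3128, 2876 and 2844 with serum and 2317 and 2517 without it in wild-type cells, against 2040 and 1976 and then 1996 and 1578 in Rb-null cells. All Rb-null arrays were below all wild-type arrays, by a log2 difference of -0.50 (SE 0.075, limma adjusted p = 0.000781), and by -0.33 with a common median and -0.30 as deposited, both still past the threshold. Psmd12 read 1505, 1134 and 999 with serum and 778 and 845 without it in wild-type cells, against 1392 and 1458 and then 1256 and 1195. Wild-type serum 1 was the highest of the 9 arrays, and the difference was 0.42 (SE 0.111, limma adjusted p = 0.0129). Without wild-type serum-free 1 its adjusted p was 0.0564.

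Psmd6 read 3310, 2448 and 2598 with serum and 1693 and 2075 without it in wild-type cells, against 2812 and 2981 and then 3159 and 2733. The lines overlapped in serum through wild-type serum 1 and were separate without serum. Its difference of 0.36 (SE 0.102, limma adjusted p = 0.0191) was lost without wild-type serum-free 1, Rb-null serum 2 or Rb-null serum-free 1 (adjusted p of 0.0679 to 0.0852). Psmd7 rose by 0.39 with no overlap between the lines. Psmd14, the deubiquitinase of the lid with which Psmd7 pairs, rose by 0.32, which did not pass without Rb-null serum 1 or 2, Rb-null serum-free 1 or wild-type serum-free 1 (adjusted p of 0.0573 to 0.0837). Psmd3 (-0.11) and Psmd13 (0.16) did not pass, and without wild-type serum 1 Psmd13 passed at 0.18 (adjusted p = 0.0197). The 3 probe sets of Psmd11 stood at 0.23, 0.04 and -0.30, of which the first was called. Without wild-type serum 1 the third was called too, in the opposite direction (-0.42, adjusted p = 0.000704). Of the chaperones that assemble the base, Psmd5 rose by 0.41, again with separate lines, whereas Psmd9 (0.06) and Psmd10 (0.03) did not pass. Psmd10 encodes gankyrin, which is also known to bind the retinoblastoma protein.

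Among the activators, 3 of 5 probe sets rose and 1 fell. Psme1, a subunit of the PA28 activator that is also induced by interferon gamma, read 1292, 1215 and 1168 with serum and 1393 and 1713 without it in wild-type cells, against 1692 and 1747 and then 2566 and 1991 in Rb-null cells. Within each medium the Rb-null arrays were all higher, and the only overlap across media was between Rb-null serum 1 and wild-type serum-free 2. The difference was 0.52 (SE 0.091, limma adjusted p = 0.00178). The probe set annotated to several PA28 genes read 2132, 1873 and 1910 and then 2465 and 2513 in wild-type cells, against 2758 and 2876 and then 3310 and 3026. Its lines did not overlap, and it rose by 0.43 (SE 0.057, limma adjusted p = 0.000386). A second probe set with several genes lay at or just above the floor on all 9 arrays.

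Psme4, the large nuclear activator PA200, read 1316, 1165 and 1125 with serum and 1039 and 1206 without it in wild-type cells, against 1783 and 1835 and then 1525 and 1688 in Rb-null cells. The Rb-null arrays were all higher, by 0.56 (SE 0.074, limma adjusted p = 0.000391), or 1.47-fold. Psme3, the nuclear PA28 gamma, was lower instead, with 3748, 4101 and 4640 with serum and 4512 and 4071 without it in wild-type cells, against 3880 and 3758 and then 2984 and 3770. The lines overlapped through wild-type serum 1, and the difference of -0.24 (SE 0.085) had a limma adjusted p of 0.0463. That call was lost on leaving out any of 7 arrays, all but wild-type serum 1 and Rb-null serum-free 2 (adjusted p of 0.067 to 0.168), and under both scalings (-0.07, adjusted p = 0.485, and -0.04, adjusted p = 0.714).

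**Figure D4:**
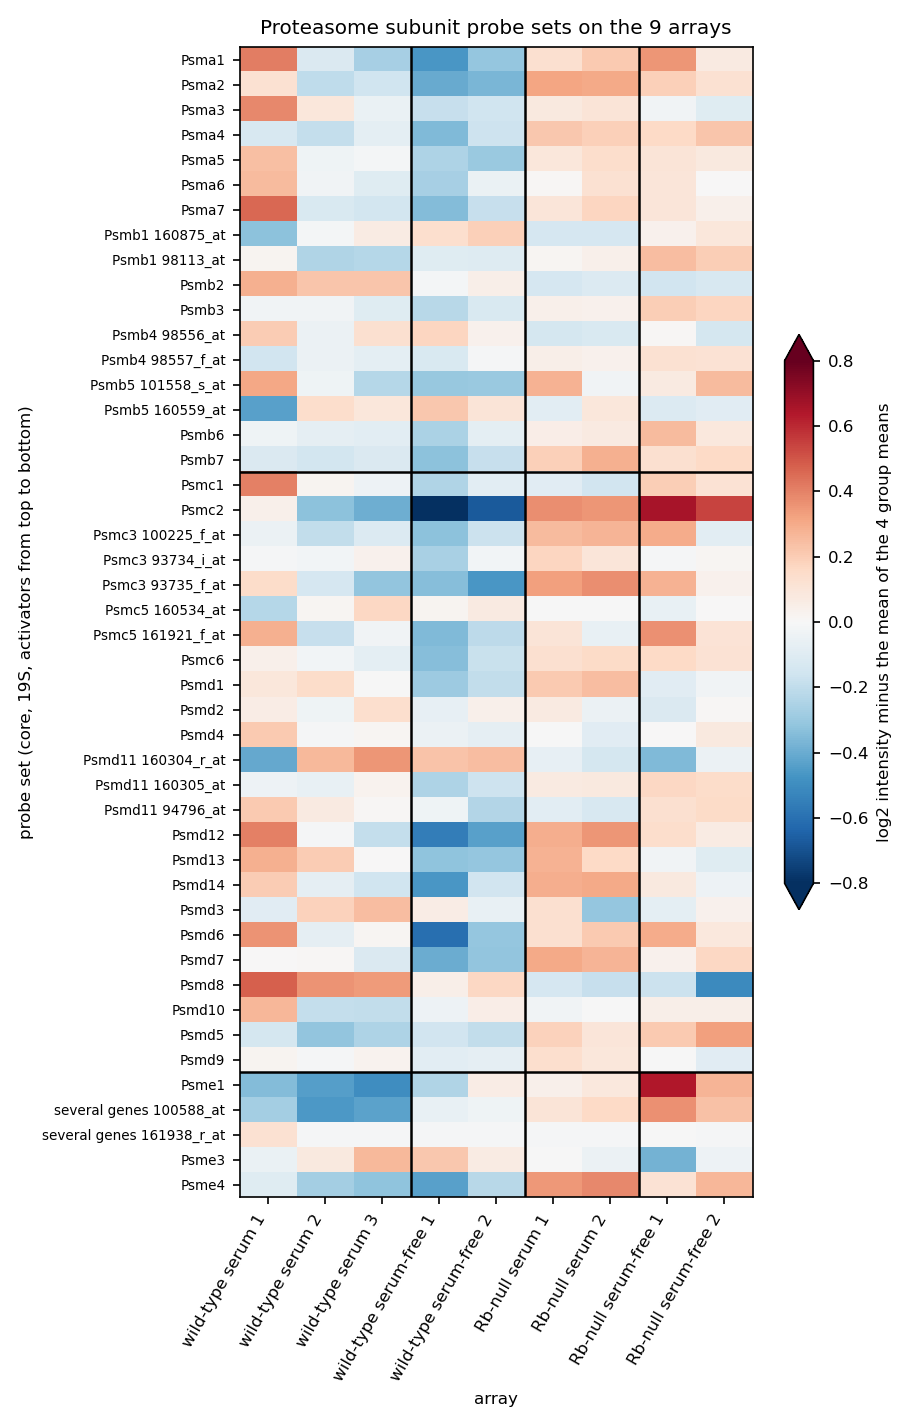
Log2 intensity of each tested subunit probe set on each array minus the mean of the 4 group means, grouped by particle (horizontal lines) and by group (vertical lines). The wild-type serum-free columns are mostly blue and the Rb-null columns mostly red, and wild-type serum 1 is above the other wild-type serum arrays for 31 of 46 rows.

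The lines were next compared within each medium. In serum, 11 of 46 subunit probe sets rose in the Rb-null line and 2 fell (background 13.2% higher and 10.4% lower), with a median of 0.09 against -0.03 over all probe sets. The core had 3 higher and 1 lower of 17, and the regulatory particles 8 higher and 1 lower of 29. The core genes that rose were Psma2, Psma4 and Psmb7 (0.39, 0.34 and 0.36), and the regulatory genes with the largest rises were Psme4 and Psmc2 (0.59 each). Psmd8 (-0.55) and Psmb2 (-0.36) fell. The calls of Psma2, Psma4 and Psmc2 were lost without either Rb-null serum array (adjusted p up to 0.0863, 0.0815 and 0.0592) and those of Psmb7 and Psmd8 without Rb-null serum 2 (0.0649 and 0.0514). Psmb2 was no longer called with a common median (adjusted p = 0.0648) or as deposited (0.0846). The deposited values without further scaling gave 20 higher and 1 lower. Over all probe sets 2421 of 9703 were called with these values, against 2287 of 9686 in the main fit. Without Rb-null serum 1 the count of 13 calls dropped to 5, without Rb-null serum 2 to 3, and without wild-type serum 1 it grew to 20. Over all probe sets, fewer were called too without either Rb-null serum array. The share of subunits called was then close to the share of all probe sets called, or below it. Without wild-type serum 1, 17 of 45 rose and 3 fell, with a background of 21.8% higher and 23.6% lower in that setting.

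Without serum, 21 of 46 rose and 1, Psmd8, fell (background 16.8% higher and 13.9% lower), with a median of 0.33 against -0.07 over all probe sets. Of the core 9 of 17 rose and none fell; of the regulatory particles 12 of 29 rose and 1 fell. Psmc2 was 2.52-fold higher (log2 difference 1.34, SE 0.129, limma adjusted p = 0.000151), and that call held without each array in turn. Other rises included Psmd6 (0.65), Psma1 (0.60), Psmd12 (0.60), Psme1 (0.55), Psma2 (0.54) and Psme4 (0.52). The calls of Psmd6, Psma1, Psmd12, Psme1 and Psme4 were each lost without wild-type serum-free 1, with adjusted p up to 0.105, 0.238, 0.136, 0.123 and 0.0751 over the arrays left out, while that of Psma2 held. Psmd8, at -0.44, was not called with a common median (adjusted p = 0.192), as deposited (0.268), or without wild-type serum-free 1 or 2 or Rb-null serum-free 2 (up to 0.103). The count of 22 calls dropped to 8 without wild-type serum-free 1, to 13 without wild-type serum-free 2 and to 11 without Rb-null serum-free 1, and grew to 34 without wild-type serum 1. Over all probe sets, fewer were called too without any 1 of these serum-free arrays. Without wild-type serum 1, 29 of 45 rose and 5 fell, with a background of 23.4% higher and 28.2% lower in that setting.

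Withdrawal of serum was then examined in each line, a comparison that shares its arrays with those above. In wild-type cells 10 of 46 subunit probe sets fell and 1 rose (background 9.25% lower and 6.61% higher), with a median of -0.14 against 0.05 over all probe sets. The core had 3 lower and none higher of 17, and the 19S particle 7 lower and none higher of 24. Those that fell were Psma2, Psma5 and Psmb2 of the core, the ATPases Psmc2 and Psmc6, Psmd1 of the base, and Psmd6, Psmd7, Psmd12 and Psmd13 of the lid. Psmd6 and Psmd12 fell by 0.56 each, and Psmc2 by 0.51 (SE 0.118, limma adjusted p = 0.0181).

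Psmd13 was the lid subunit with the smallest adjusted p. It read 1530, 1446 and 1261 with serum and 1007 and 1015 without it, with no overlap, and fell by 0.48 (SE 0.095, limma adjusted p = 0.00858). The probe set that rose was the one annotated to several PA28 genes, by 0.34 (SE 0.077, limma adjusted p = 0.0163), to 0.28 (adjusted p = 0.116) with a common median and 0.23 (adjusted p = 0.184) as deposited. Each of these 11 calls was lost on leaving out 1 or more single arrays. None of them was called without wild-type serum-free 1, and 2 subunit calls stood without wild-type serum-free 2. There were 6 calls without wild-type serum 2, and 6 without either of Rb-null serum 1 and 2, whose arrays add to the shared estimate of spread. Over all probe sets, fewer were called too in each of these settings. On leaving out 1 of the wild-type serum-free arrays, the share of subunits called was below that of all probe sets. In the other settings these shares were close.

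In Rb-null cells withdrawal changed 1 of 46: Psmd1 fell by 0.29 (SE 0.079, limma adjusted p = 0.0402), against a background of 6.42% lower and 7.5% higher. An unadjusted p under 0.05 was found for 6 of 46 (13%), against 24.2% of all probe sets. The median was -0.01, against 0.00 over all probe sets. The Psmd1 arrays were separate, 2245 and 2301 with serum and 1824 and 1901 without it, but the call was lost on leaving out any of 7 arrays, all but wild-type serum 1 and 3 (adjusted p of 0.0589 to 0.245). The count was 9 of 45 without wild-type serum 1 (6 higher and 3 lower), with a background of 12.7% higher and 10.9% lower in that setting.

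**Figure D5:**
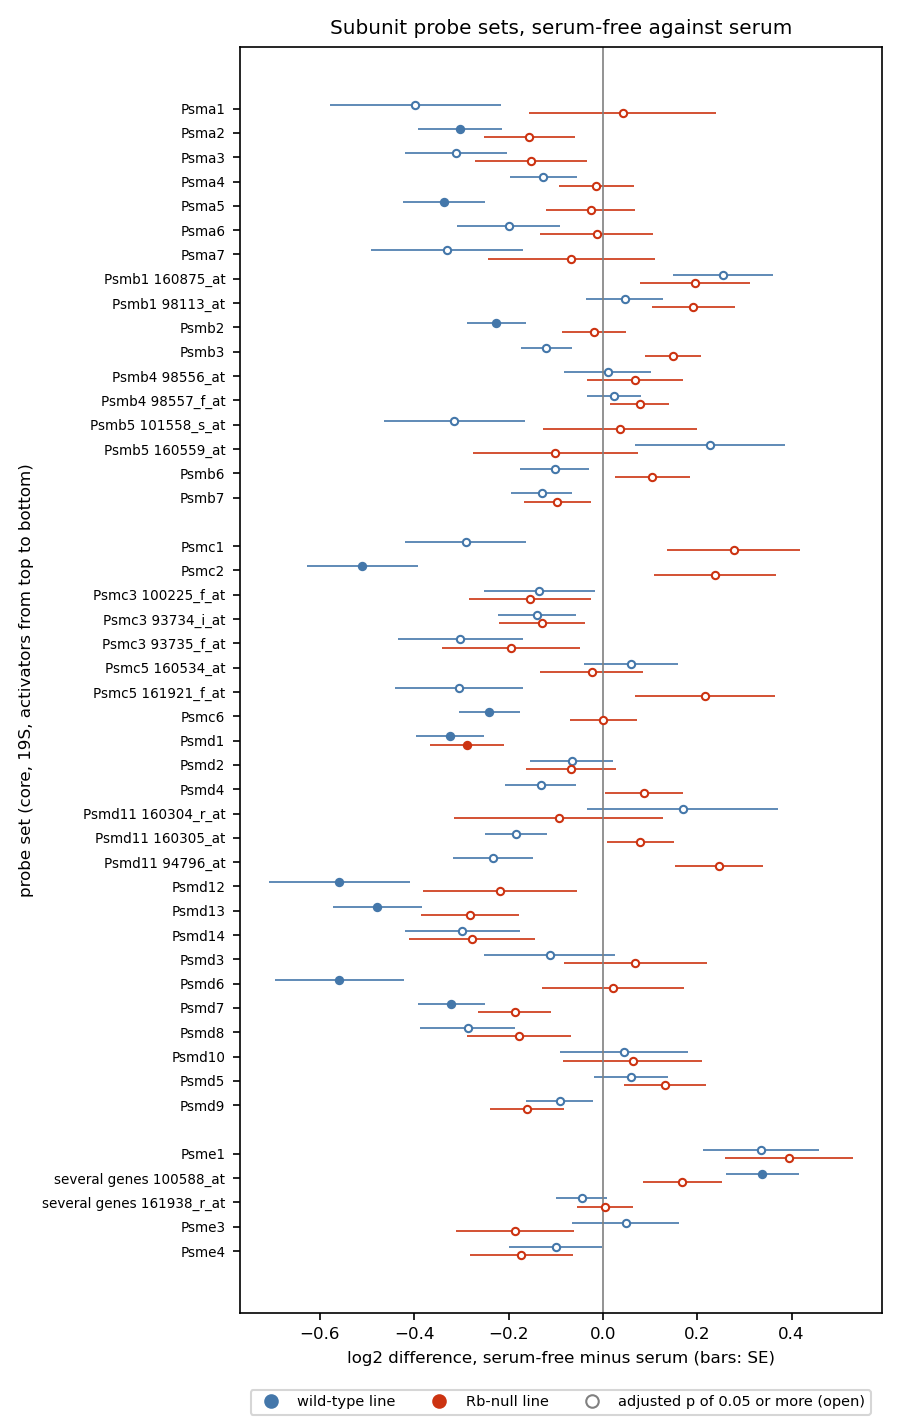
Difference between serum-free and serum medium (serum-free minus serum, log2) for each tested subunit probe set in the wild-type and in the Rb-null line, with standard errors as bars; filled points passed an adjusted p of 0.05. In the wild-type line 34 of 46 points lie below 0, and in the Rb-null line 24 of 46. Over all probe sets tested, 3715 of 9686 were below 0 in the wild-type and 4740 of 9686 in the Rb-null line.

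Whether withdrawal acted differently in the lines was tested by the interaction, the withdrawal difference in Rb-null cells minus that in wild-type cells. None of 46 subunit probe sets passed (limma, background 0.929% called), and 9 (19.6%) had an unadjusted p under 0.05, against 10.9% of all probe sets. The estimates were above 0 for 36 of 46, and for 4345 of 9686 over all probe sets. The median was 0.12, against -0.03 over all probe sets. Psmc2 had the largest, 0.75 (SE 0.175, limma adjusted p = 0.119), and without wild-type serum 1 it was 0.62 (adjusted p = 0.0101), the 1 call among the subunits in that setting. The background in that setting was 1.41% higher and 1.23% lower. The fall in wild-type cells and the smaller change in Rb-null cells are thus not shown to differ by this test, for any single subunit with all 9 arrays.

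Other genes of the pathway were set beside the subunits, with counts for the average difference between the lines. Of the chaperones that assemble the core, 4 of 6 probe sets rose and 1 fell. The chaperone pair Psmg1 and Psmg2 rose by 0.53 and 0.72, and the related chaperone Psmg4 by 0.22, which did not pass without Rb-null serum 2, Rb-null serum-free 2 or wild-type serum-free 1 (adjusted p up to 0.0662). A probe set of Psmg3 fell by 0.22, a call lost with a common median (adjusted p = 0.339), as deposited (0.606), and without wild-type serum-free 1, Rb-null serum 1 or Rb-null serum-free 1 (up to 0.0878). Of the list of ubiquitin receptors, shuttles and deubiquitinases, which also held the ubiquitin ligase Ube3a, 6 of 10 rose and 1 fell. Ube3a rose by 0.50, a call lost on leaving out any of 6 arrays, all but the wild-type serum arrays. Ubqln1, a shuttle that brings ubiquitinated proteins to the proteasome, rose by 0.74 and 0.62 on its 2 probe sets, and the deubiquitinase Uchl5 of the 19S base by 0.70. Uchl5 also fell on withdrawal of serum in both lines, by 1.37 in wild-type and 1.14 in Rb-null cells. Usp14, the other proteasome-bound deubiquitinase of the list, was called in opposite directions on its 2 probe sets (0.75 and -0.24), and the lower call was lost with a common median (adjusted p = 0.192) and as deposited (0.392).

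On the NRF1 list 1 of 8 probe sets was higher and 4 were lower. Maff, a small Maf partner of NRF1, fell by 0.51. The 2 probe sets of Nfe2l1 were called in opposite directions, -0.66 and 0.23, and the second call was lost without any of 5 arrays, all but wild-type serum 1 and 3, Rb-null serum 2 and Rb-null serum-free 1 (adjusted p up to 0.124). The call of Mafg, another small Maf protein (-0.29), was lost with a common median (adjusted p = 0.0851) and as deposited (0.204). Of the p97 complex, which extracts ubiquitinated proteins, 2 of 8 probe sets rose, Ufd1 by 0.20 and 1 of 3 probe sets of its cofactor Ubxn1 by 0.53. That of Ufd1 was lost without wild-type serum-free 2, Rb-null serum 1 or 2, or Rb-null serum-free 2 (adjusted p up to 0.0797). The background of these counts is again 21.8% higher and 23.4% lower.

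The immunoproteasome genes, the inducible counterparts of the catalytic subunits, had 1 of 3 probe sets called between the lines. Psmb8 rose by 0.28 on average between the lines and by 0.51 without serum, whereas Psmb9 (0.02) and Psmb10 (0.11) did not pass on average. The average call of Psmb8 was lost without Rb-null serum 2 or wild-type serum-free 2 (adjusted p up to 0.0578), and that without serum without Rb-null serum-free 1 or wild-type serum-free 2 (up to 0.0638). On withdrawal of serum in Rb-null cells Psmb8 rose by 0.54 and Psmb9 by 0.40, with Psmb10 at 0.09. Both of these calls were lost without Rb-null serum 1 or Rb-null serum-free 1, and that of Psmb9 also without Rb-null serum 2 and as deposited (adjusted p up to 0.096 for Psmb8 and 0.132 for Psmb9). Of the genes that share the prefix only, Psme3ip1, which encodes a protein that binds Psme3, rose by 0.37 between the lines, and Psmc3ip, a cofactor of meiotic recombination, by 0.21. The first call was lost without wild-type serum-free 1 or Rb-null serum-free 1 (adjusted p up to 0.0595), and the second without either of those, wild-type serum-free 2 or Rb-null serum 1 (up to 0.0713). Psmc3ip was close to the floor, at 197 to 237 on wild-type and 282 and 299 on Rb-null serum arrays, and fell by 0.56 without serum in Rb-null cells to 198 and 197.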

How the data were processed

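For each of 9 single-channel arrays, the deposited table held 1 intensity value per probe set on a linear scale; how the authors computed and scaled it is not given in the sources here. Array medians lay between 445 and 474, and upper quartiles spanned 0.22 on the log2 scale, so the values were quantile normalized. Values below 197, the percentile 25 of all values, were raised to it, since no detection calls came with them. Probe sets above that floor on at least 2 arrays were tested, 9686 in all, 2735 being below it and 1 empty. Symbols came from the platform annotation (10833 probe sets with 1 symbol, 396 with several, 1193 with none). The suffixes _f and _s mark probe sets that can hybridise to related transcripts. Among the tested subunit probe sets, _f was carried by those of Psma3, Psmb7 and Psmd12. It was also carried by the brighter probe set of Psmb4, both called probe sets of Psmc3 and the second of Psmc5. Another suffix, _r, was carried by the probe set of Psmd9 and the third of Psmd11, and _i by the third of Psmc3. The probe sets of Usp14 and Psmg3 that fell carried _r too. Group means of the 4 groups were fitted together in limma 3.58.1 (R 4.3.3) with an intensity trend, 5 residual and 4.20 prior degrees of freedom, two-sided tests and Benjamini-Hochberg adjustment over 9686 probe sets. The number of arrays limits the precision. The fit was tested on simulated data with independent noise of equal spread on every array. Those data held no outlying array such as wild-type serum 1, so they do not show how the fit fares with one.

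Given array by array are Psmb5, Psmb6 and Psmb7, in each comparison up to 3 core and 3 regulatory probe sets with the highest and the lowest differences among those called, and further probe sets of these genes. Of the other lists, up to 3 calls per direction with the smallest adjusted p are named, and the immunoproteasome genes and Ube3a. Members and lists were chosen with earlier results of these data known. Psmd13 is given beyond that rule, chosen after its values were seen. The alternatives were 2 other scalings, 2 other floors, no filter, no trend, a replicate block, 1 probe set per gene, and each array left out. The list of ubiquitin and E1 genes had no probe set with 1 symbol and was not analysed here.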

Additional observations from a re-analysis of the deposited data

How the results depend on the processing

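Counts are subunit probe sets past an adjusted p of 0.05 in limma. With 2 or 3 arrays a group, leaving out each array in turn gave 18 to 35 calls between the lines averaged over media (27 with all arrays), 3 to 20 in serum (13), 8 to 34 without serum (22), 0 to 11 for withdrawal in wild-type cells (11), 0 to 9 for withdrawal in Rb-null cells (1) and 0 to 1 for the interaction (0). A group left with 1 array was assumed to vary like the others. Calls over all probe sets moved as well. Without wild-type serum 1 they were 4376 of 9654 in serum and 4981 of 9654 without serum. With all arrays they were 2287 and 2971 of 9686. With no filter on low values, which tests 12421 probe sets, there were 13 calls without serum and 6 for withdrawal in wild-type cells. Over all probe sets these counts were 2145 and 1175. As deposited, there were 21 calls in serum. A common median gave 0 for withdrawal in Rb-null cells. The causes were not tested. Of 74 subunit calls over the 5 comparisons other than the interaction, 13 belong to probe sets left out with 1 probe set per gene. No call changed sign in a setting that tested it, the blocks below included, 27 held in each such setting, and 27 were lost with no filter. Array signal near the floor limits the lowest members, such as the dimmer probe set of Psmb4.

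The labels do not say whether the replicate numbers pair the arrays. Deviations of same-numbered arrays correlated between -0.23 and 0.33. Between groups of 2 arrays each, replicates 1 and 2 give the same value by construction, so these correlations cannot settle it. With the replicate block there were 22 calls averaged over media, 10 in serum, 24 without serum, 11 and 0 for withdrawal in wild-type and Rb-null cells, and 0 for the interaction. Over all 9686 probe sets tested, these counts were 3689, 1595, 3069, 1536, 1255 and 51. A crossed replicate block, chosen after seeing the data, gave 24, 11, 24, 14, 1 and 0. Over all probe sets it gave 3830, 1702, 3262, 1627, 1356 and 47.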
